A study of Saccharomyces cerevisiae with 8 samples.

Results

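Untreated budding yeast (*Saccharomyces cerevisiae*) carrying a upf1 mutation was compared with untreated wild type (WT) for the ribosome footprints on Xrn1-sensitive unstable transcripts (XUTs). XUTs are long noncoding RNAs that accumulate when the cytoplasmic exonuclease Xrn1 is missing. Every open reading frame (ORF) in a XUT with at least 1 read in either column was taken, apart from ORFs of the 2-micron plasmid. This gave 5478 of the 13941 listed ORFs, in 1199 of 1637 XUTs. The WT strain is BY4741, with the genotype MATa his3Δ1 leu2Δ0 met15Δ0 ura3Δ0. The upf1 strain has these same markers and the allele that the labels write as upf1*::kanMX4. Cultures in YPD medium at 30 °C were taken at OD600 0.5, and the groups compared here received no drug. The labels describe 2 libraries per strain as biological replicates, which the deposited table merges into 1 count and 1 phase score per ORF, so no value here has a replicate error and no p-value is given. A second pair of conditions, the same strains after 15 min of cycloheximide (CHX), an inhibitor of translation elongation, is shown beside the untreated values and shares no library with them.

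Upf1 is the RNA helicase at the centre of nonsense-mediated decay (NMD), a translation-dependent pathway that removes RNAs on which ribosomes stop early. In yeast a long stretch of RNA after the stop codon is a known feature of NMD substrates. Noncoding RNAs that reach the cytoplasm can be read by ribosomes in short ORFs and can then meet this pathway. In these bulk libraries more RNA and more ribosomes per RNA cannot be told apart, because no RNA abundance was analysed here.

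The table held 4429 reads of the member ORFs in WT and 23650 in upf1. ORFs that overlap on a strand share reads: in all 2157 cases where an ORF lay inside another, it had no more reads than the outer one. Each read was therefore counted once, over 3820 ORFs that do not overlap, with 3342 reads in WT and 17857 in upf1. That is 5.34 upf1 reads per WT read. With CHX the same ORFs held 23271 reads in WT and 29164 in upf1, so read counts with and without CHX are not on 1 scale. These sums cover XUT ORFs and are not library depths, so all levels below are shares of the reads in these ORFs. Intervals are 95% intervals that cover counting error, not the variation between cultures. The UPF1 gene itself (NAM7, chromosome 13, 426712 to 429627) has no listed ORF in it or opposite it, so the mutation could not be checked in these data. The 5 listed ORFs in or opposite HIS3, in XUT1709, had 0 reads in each of the 4 conditions.

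The most-read ORFs of XUTs with a larger or a smaller share in upf1 are shown first, since most of the reads of these transcripts lie in them. Each runs from the start codon through the stop codon, 5′ to 3′, with both in capitals, read from the R64 reference sequence. The ORFs of XUTs with a larger share lie at chr4:135473-135547 (minus strand), chr7:778234-778269 (plus), chr12:910251-910409 (plus), chr11:271601-271693 (minus) and chr2:380967-381059 (minus), in the order printed.
XUT1034: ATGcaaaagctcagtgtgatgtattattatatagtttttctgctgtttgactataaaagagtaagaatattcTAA
XUT0376: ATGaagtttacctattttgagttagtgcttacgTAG
XUT0673: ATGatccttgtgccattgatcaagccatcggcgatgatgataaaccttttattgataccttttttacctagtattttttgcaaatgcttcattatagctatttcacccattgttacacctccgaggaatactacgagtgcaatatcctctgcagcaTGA
XUT1434: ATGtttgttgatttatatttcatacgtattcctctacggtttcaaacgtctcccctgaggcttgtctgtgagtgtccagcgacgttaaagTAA
XUT0974: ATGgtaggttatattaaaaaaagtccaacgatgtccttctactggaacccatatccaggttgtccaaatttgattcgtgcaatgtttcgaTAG

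The ORFs of XUTs with a smaller share lie at chr12:928357-928515, chr2:169634-169870, chr12:614444-614530 and chr13:258825-258902 (all minus strand) and chr3:169162-169197 (plus), in the order printed.
XUT1514: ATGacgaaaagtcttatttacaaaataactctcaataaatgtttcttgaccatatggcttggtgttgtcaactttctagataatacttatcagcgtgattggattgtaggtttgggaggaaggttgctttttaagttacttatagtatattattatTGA
XUT0957: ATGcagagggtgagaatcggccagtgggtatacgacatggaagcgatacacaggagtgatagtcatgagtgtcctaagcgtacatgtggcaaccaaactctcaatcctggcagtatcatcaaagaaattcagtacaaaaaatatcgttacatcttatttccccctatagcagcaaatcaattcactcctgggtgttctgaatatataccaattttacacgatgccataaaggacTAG
XUT1492: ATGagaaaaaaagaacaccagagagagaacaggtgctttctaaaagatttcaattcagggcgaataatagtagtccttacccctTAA
XUT1547: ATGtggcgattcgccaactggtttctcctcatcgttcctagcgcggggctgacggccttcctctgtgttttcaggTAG
XUT0109: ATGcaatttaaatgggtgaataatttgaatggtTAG

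Without their stop codons the ORFs are 33 to 156 nt long in the first set and 33 to 234 nt in the second. None of the 10 has a 28-nt window that occurs a second time in the reference genome. Of the XUTs with a larger share, XUT1467 does have such windows, in 72.8% of its most-read ORF, which lies opposite GEX2. Of those with a smaller share, XUT1511 has them in 25% of its most-read ORF, which lies over a long terminal repeat.

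Shares could be compared for the 175 XUTs with at least 30 reads in the 2 columns together. These XUTs held 59.9% of the WT reads and 65.4% of the upf1 reads. A share at least 2-fold higher in upf1 was found for 60 of the 175 (34.3%), and a share at most 0.5-fold for 17 (9.71%). With the 95% counting interval as the criterion, 37 lay wholly above 1 (21.1%) and 17 wholly below (9.71%). The median ratio was 1.42, so the typical tested XUT was above 1 when scaled to the total. The minimum is set on the sum of both columns, to which upf1 contributes most of the reads. When ratios were centred on that median, 30 XUTs were at least 2-fold higher and 29 at most 0.5-fold, which takes the share of higher ones among them from 77.9% to 50.8%. With a minimum on the mean of the WT and upf1 shares, which weighs the columns equally, 42 of 150 were higher and 23 lower, and the median was 1.22. Of the 60 higher XUTs, 30 were at least 2-fold higher with centring. The minimum on the mean share was met by 42 of the 60 and by all 17 lower ones. That minimum leaves the ratio of a XUT unchanged, and centring divides every ratio by 1.42. XUTs kept by the minimum thus keep their call, and lower ones stay lower with centring, by construction. Neither is support for the calls.

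Nearest the 2-fold limits, XUT1807 (ratio 2.03) lay just inside and XUT0817 (2.00 when rounded, 32 reads in upf1 and 3 in WT) just outside. At the lower limit XUT1722 (0.489) lay inside and XUT1156 (0.508) outside. WT had a median of 7 reads per tested XUT, against 48 in upf1, and 57 of the XUTs had fewer than 5 WT reads. The intervals are wide where the WT count is low.

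**Figure D1:**
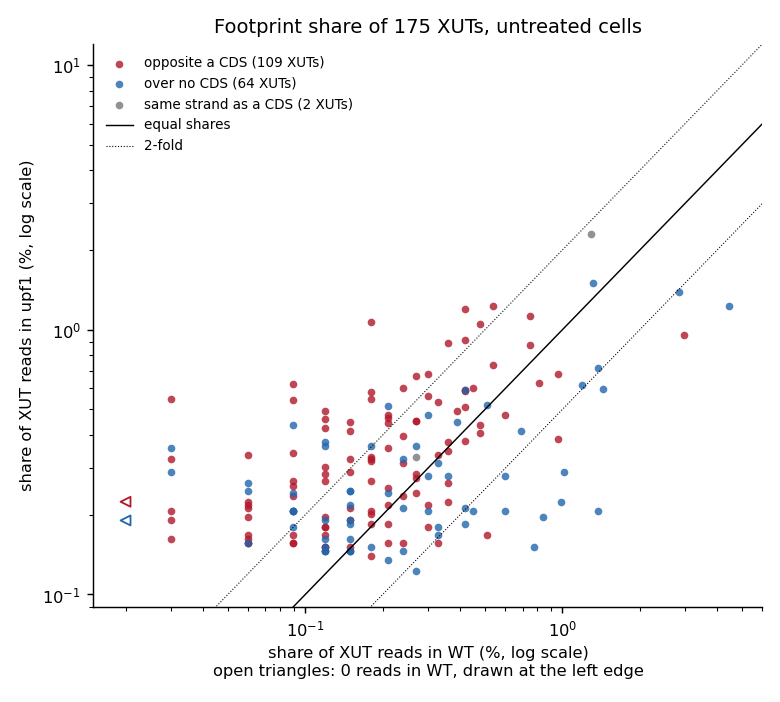
Share of the XUT reads in WT (x axis, %, log scale) and in upf1 (y axis, %, log scale) for each of the 175 XUTs, coloured by whether a used ORF lies opposite a coding sequence (CDS). The highest share in WT is 4.43% (XUT0957, below the lower dotted 2-fold line), and the points left of the upper dotted line are mostly XUTs opposite a CDS.

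XUTs opposite a CDS made up most of those with a larger share. Annotated pseudogenes were counted with the CDS in all classes by position. Of the 60 higher XUTs, 45 had a used ORF opposite a CDS and 15 had none over a CDS. Of the 17 lower XUTs, 4 lay opposite a CDS and 13 over none. Put by class, 45 of 109 XUTs opposite a CDS were higher (41.3%) and 4 lower (3.67%), with a median ratio of 1.68. Of the 64 XUTs over no CDS, 15 were higher (23.4%) and 13 lower (20.3%), with a median ratio of 1.14. Over all 3820 ORFs, without any read minimum, ORFs opposite a CDS held 37.0% of the reads in WT (35.4 to 38.7) and 49.6% in upf1 (48.8 to 50.3). ORFs over no CDS held 61.3% in WT (59.6 to 63.0) and 47.6% in upf1 (46.9 to 48.3). The ratio of shares was 1.34 (1.26 to 1.42) opposite a CDS and 0.776 (0.740 to 0.815) over none. With the 10 most-read XUTs left out the ratios were 1.26 and 0.816. With CHX the same ORFs gave 1.12 (1.09 to 1.16) and 0.913 (0.893 to 0.934), the same directions with a smaller size.

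The XUT with the highest lower bound was XUT1034, opposite INH1, the gene for an inhibitor of the mitochondrial ATP synthase (chromosome 4, first to last listed ORF 134755 to 135547). It had 98 upf1 and 1 WT reads, or 0.549% against 0.0299% of the reads, a ratio of 18.3 (3.22 to 732). Its first ORF, of 72 nt and printed above, had 61 upf1 and 0 WT reads and lies beyond the INH1 stop codon by 39 nt. The second ORF, opposite INH1 itself, had 35 and 1. With CHX XUT1034 had 153 upf1 and 63 WT reads, a ratio of 1.94 (1.44 to 2.64). The WT column held many more reads with CHX than without, so the WT counts of 63 and 1 do not compare directly. The 2 ratios of shares differ in size but not in direction.

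XUT1612, opposite YTP1 (chromosome 14, 205014 to 206635), had the most upf1 reads among these 12, apart from XUT1433. It had 191 upf1 and 6 WT reads, a ratio of 5.96 (2.69 to 16.4), and 2.08 (1.42 to 3.11) with CHX. Its reads were spread along the transcript. The ORF with most of them, of 333 nt, held 42 in upf1 and 1 in WT, and ORFs of 282 nt and 165 nt further along held 33 and 32 in upf1 and 3 and 0 in WT. The 165-nt ORF starts 1234 nt from the first listed ORF.

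XUT0673 runs opposite COX8, a subunit of cytochrome c oxidase, and VPS33, a gene of vacuolar protein sorting (chromosome 12, 909691 to 912450). It had 111 upf1 and 3 WT reads, a ratio of 6.92 (2.31 to 34.1). One ORF of 156 nt opposite VPS33 held 97 and 3 of them, and the 39-nt first ORF, opposite COX8, held 3 and 0. With CHX this XUT had 139 upf1 and 121 WT reads, a ratio of 0.917 (0.713 to 1.18), so the larger share was not seen there.

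**Figure D2:**
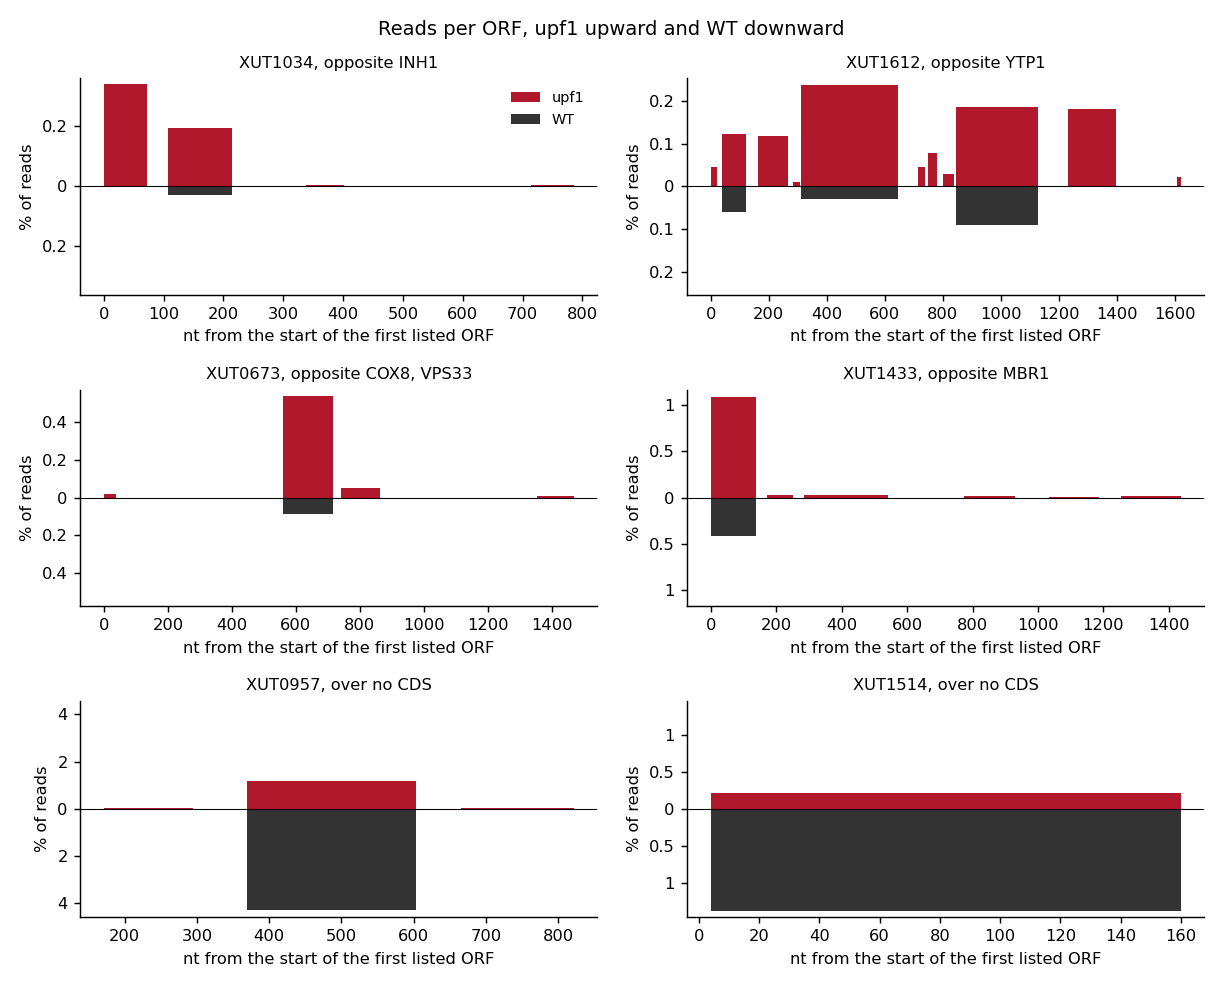
Share of the reads (%) in each used ORF along 6 XUTs, with upf1 drawn upward and WT downward, against the distance in nt from the start of the first listed ORF. Bar width is ORF length, and the y scale differs between panels. Reads of XUT1612 are spread over many ORFs, whereas XUT0673, XUT1433, XUT0957 and XUT1514 have most of theirs in 1 ORF.

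XUT0376 lies over no CDS (chromosome 7, 778234 to 779057), and its first ORF, of 33 nt, held 60 of the 64 upf1 reads and the 1 WT read. Its ratio was 12 (2.07 to 480), and 1.92 (1.31 to 2.84) with CHX. XUT1434, opposite CUE2, which encodes an endonuclease of no-go decay, had 97 upf1 and 3 WT reads, a ratio of 6.05 (2.01 to 29.9). Of these, 61 and 1 lay in the 90-nt ORF printed above, which sits before the CUE2 start codon. With CHX its ratio was 1.1 (0.877 to 1.40).

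XUT0974, opposite YBR071W, had 58 upf1 and 1 WT reads, all in its 90-nt first ORF, a ratio of 10.9 (1.87 to 436). XUT1292, near the start of YHK8, had 52 and 1, a ratio of 9.73 (1.67 to 392). XUT1467, opposite the glutathione exchanger gene GEX2, had 40 and 0. Against a floor of 3 reads in the WT column its ratio was 2.50, and the lower limit of its counting interval was 1.94, but the repeated windows noted above mean that its reads could come from a near-identical copy. XUT1150, before the start of GLC7 (the catalytic subunit of protein phosphatase 1), had 34 and 0, a ratio of 2.12 against the same floor with a lower limit of 1.63. Without ORFs over an LTR its ratio was 1.93, and without ORFs with a repeated window 1.97, both under 2-fold.

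XUT1433, opposite MBR1, a gene linked to mitochondrial function, rested on more WT reads than the others. It had 213 upf1 and 14 WT reads, a ratio of 2.85 (1.66 to 5.30), and 2.07 (1.6 to 2.70) with CHX. Its first ORF, of 138 nt, held 92.1% of them. XUT1134, before the start of the microtubule-binding protein gene BIM1, had 78 and 3, a ratio of 4.87 (1.6 to 24.1). XUT0195, opposite UPS3, had 88 and 4, a ratio of 4.12 (1.55 to 15.4). Apart from XUT1612 and XUT1433, each of these 12 transcripts had at most 4 WT reads.

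**Figure D3:**
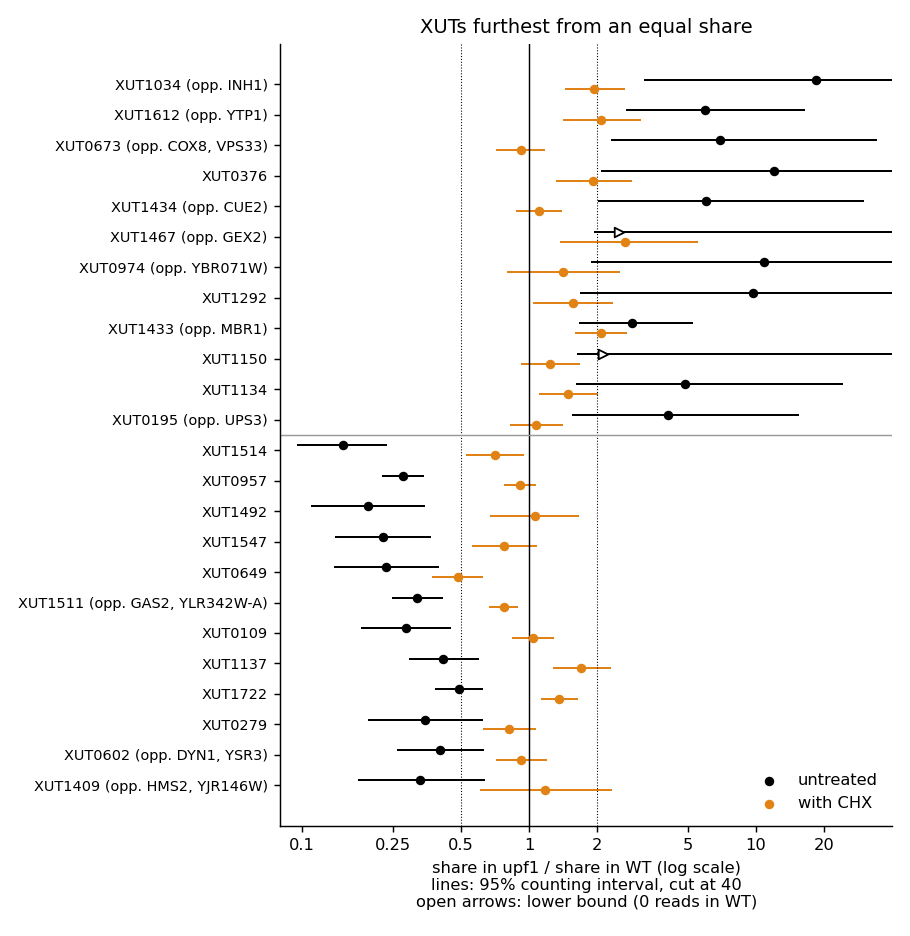
Ratio of the share in upf1 to that in WT (x axis, log scale) for the 12 XUTs with the highest lower bound and the 12 with the lowest upper bound of the 95% counting interval, untreated (black) and with CHX (orange). Dotted lines mark 0.5 and 2. XUT1034 has the highest lower bound, 3.22, and XUT1514 the lowest upper bound, 0.237, and most orange points lie nearer to 1 than the black ones. The XUTs were chosen by the untreated interval, which can itself place the orange points nearer to 1.

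The smaller shares rested on more WT reads, as a low ratio at this read minimum requires. XUT1514 (chromosome 12, 928360 to 928519) had 37 upf1 and 46 WT reads, or 0.207% against 1.38%, a ratio of 0.151 (0.0949 to 0.237). All of them were counted in its 156-nt ORF, 227 nt before the start of SEI1, the gene for seipin, which acts in lipid droplet formation. With CHX the ratio was 0.711 (0.529 to 0.954).

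XUT0957 held more of the WT reads than any other XUT: 148, or 4.43%, against 219 in upf1, or 1.23% (ratio 0.277, 0.224 to 0.344). Its 234-nt ORF, 260 nt beyond the stop codon of the ribosomal protein gene RPL19B on the other strand (chromosome 2), had 144 in WT and 208 in upf1. With CHX the ratio was 0.910 (0.775 to 1.07). XUT1492 has 1 listed ORF, 224 nt before the start of FAR10, a gene of recovery from pheromone arrest. It had 27 upf1 and 26 WT reads, a ratio of 0.194 (0.109 to 0.347), against 1.06 (0.676 to 1.67) with CHX.

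XUT1547 near GIS4 had 40 and 33 reads, a ratio of 0.227 (0.139 to 0.371). XUT0649 had 35 and 28, a ratio of 0.234 (0.138 to 0.399), and was at most 0.5-fold with CHX as well, at 0.484 (0.372 to 0.626). It was the only tested XUT at most 0.5-fold with CHX (0.571% of them), and its listed ORFs lie between RDN5-1 and RDN37-2 in the ribosomal DNA array, which is present in many copies in yeast. XUT1511, which crosses a long terminal repeat (LTR) and runs opposite GAS2, had 170 and 99, a ratio of 0.321 (0.249 to 0.416). Most of these reads lie in ORFs over the LTR that are not opposite GAS2. The 36-nt ORF with most of them held 75 in upf1 and 45 in WT. Without ORFs over a Ty element or LTR the ratio of XUT1511 was 0.309. XUT0109 near RHB1, a Rheb-like GTPase gene, had 52 and 34, a ratio of 0.286 (0.182 to 0.455). All were counted in its 33-nt first ORF, the only one used, which overlaps another listed ORF. With the longest ORFs taken first, XUT0109 did not reach the read minimum.

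The remaining 5 of these 12 were XUT1137 before the start of SPO73 (0.417, 0.294 to 0.599), XUT1722 (0.489, 0.384 to 0.626), XUT0279 near the ribosomal protein gene RPL34A (0.346, 0.196 to 0.630), XUT0602 opposite DYN1 and YSR3 (0.404, 0.262 to 0.634) and XUT1409 opposite HMS2 (0.330, 0.176 to 0.638). Of the 12, 9 had every used ORF outside a CDS. Apart from XUT1409, each had at least 20 reads in WT.

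The 10 most-read XUTs lay on both sides of 1. XUT0468, on the same strand as SDL1, was the most read, with 411 reads in upf1 and 43 in WT, a ratio of 1.79 (1.3 to 2.51), and 2.01 (1.65 to 2.46) with CHX. Its 381-nt first ORF, which overlaps SDL1, held 396 of these in upf1 and 42 in WT. Reads of SDL1 itself cannot be told apart from reads of this XUT. XUT0083 had 267 and 44, a ratio of 1.14 (0.823 to 1.6). XUT1341, opposite the cytochrome c oxidase gene COX5B and HOS4, had 202 and 25, a ratio of 1.51 (0.995 to 2.39), an interval that includes 1. The 10 most-read XUTs in WT held 19.2% of its reads, and the 10 most-read in upf1 held 13.0% of its reads.

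XUTs were also counted by the function of the gene opposite them. All XUTs on these lists lie opposite a CDS, so their counts stand beside the 41.3% higher and 3.67% lower among the 109 XUTs of that class, whose median log2 ratio was 0.75, and beside 34.3% and 9.71% among all 175. The gene lists were drawn up with earlier results of these data known and cannot support a direction. Of 7 tested XUTs opposite genes listed under carbon source use and gluconeogenesis, 5 were higher and 0 lower, with a median log2 ratio of 1.34 against 0.75 over all XUTs opposite a CDS and 0.50 over all 175. Besides XUT1612, they were XUT0741 opposite ADH2, the alcohol dehydrogenase that oxidises ethanol (82 reads in upf1 and 4 in WT, ratio 3.84, 1.44 to 14.4), XUT1417 opposite the lactate transporter gene JEN1 (108 and 8, 2.53, 1.24 to 6.0), XUT1479 opposite the galactose permease gene GAL2 (40 and 2, 3.74, 0.971 to 32) and XUT0282 opposite the isocitrate lyase gene ICL1 (51 and 4, 2.39, 0.877 to 9.09). The last 2 intervals include 1. In XUT0741 the most-read ORF lies 189 nt beyond the ADH2 stop codon and held 45 upf1 and 3 WT reads. XUT1612 is counted here through YTP1, whose role in carbon source use was not examined. XUT1022 opposite ADH7 (ratio 1.36) and XUT0860 opposite GAL4 and GYP5 (1.22) were neither higher nor lower. With CHX the median log2 ratio of this list was 0.28, against 0.16 over all.

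Of 4 XUTs opposite genes of respiration and mitochondria, 3 were higher and 0 lower (median log2 1.94, against 0.75 over the 109, of which 41.3% were higher). The other was XUT1341 opposite COX5B, with the ratio of 1.51 given above. These were XUT0673, with most reads opposite VPS33 rather than COX8, XUT0195 opposite UPS3, and XUT1253 opposite the cardiolipin deacylase gene CLD1 (76 and 4 reads, ratio 3.56, 1.33 to 13.4). With CHX the median log2 ratio of these 4 was 0.12. Of 3 XUTs opposite genes of hexose transport and glucose sensing, 2 were higher: XUT1479 and XUT0257 opposite HXT13 (38 and 2 reads, 3.56, 0.919 to 30.4). The other was XUT1036 (0.909), opposite RGT2 and ARF2. Most upf1 reads of XUT0257, and its WT reads, lie in ORFs that are not opposite HXT13.

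Of 8 XUTs opposite transporter and multidrug resistance genes, 5 were higher and 0 lower (median log2 1.16, against 0.75 over the 109, of which 41.3% were higher and 3.67% lower). XUT0961 opposite PDR3, a transcription factor of drug resistance, had 219 upf1 and 18 WT reads (2.28, 1.41 to 3.91). XUT0815 opposite RSB1 had 187 and 16 (2.19, 1.31 to 3.91), XUT1656 opposite the transporter gene PDR18 had 80 and 5 (2.99, 1.23 to 9.47) and XUT1340 opposite QDR1 and QDR2 had 85 and 7 (2.27, 1.06 to 5.82). XUT1352 opposite the allantoin permease gene DAL4 had 29 and 2 (2.71, 0.687 to 23.5), and 20 and 2 with CHX.

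Of 2 XUTs opposite stress genes, XUT0202 opposite the peroxisomal catalase gene CTA1 was higher, with 60 reads and 2 (5.61, 1.49 to 47.4). Of 7 XUTs opposite meiosis and sporulation genes 0 were higher and 2 lower, XUT1511 opposite GAS2 and XUT0536 opposite LOH1 (28 and 11 reads, 0.476, 0.230 to 1.06). The interval of XUT0536 includes 1, and most reads of XUT1511 lie over an LTR rather than opposite GAS2. The median log2 ratio of these 7 was 0.02, against 0.75 over the 109, of which 41.3% were higher and 3.67% lower. Of 3 opposite cell wall genes 0 were higher and XUT1511 was again the lower one, and of 2 opposite nitrogen and amino acid genes none was higher or lower. The lists are small, and the counts were not compared with each other by a test.

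The position of the reads relative to the end of the listed ORFs differed between the strains. For each ORF the length from its end to the end of the last listed ORF of its XUT was taken, a lower limit on the RNA that follows, since transcript ends were not used here. ORFs with 0 to 100 nt listed downstream held 17.6% of the reads in WT (16.3 to 18.9) and 9.03% in upf1 (8.62 to 9.46), a ratio of 0.513 (0.467 to 0.565). With over 100 and up to 500 nt the ratio was 0.733 (0.688 to 0.782). With over 500 and up to 1000 nt it was 1.40 (1.29 to 1.52), and with over 1000 nt 1.37 (1.28 to 1.47). The latter ORFs held 27.0% of the reads in WT (25.5 to 28.6) and 37.2% in upf1 (36.5 to 37.9). With the 10 most-read XUTs left out the ratios were 0.499, 0.791, 1.33 and 1.39, so the 2 shorter lengths again lay below 1 and the 2 longer ones above, with the longer pair in the other order. With the 2-micron plasmid ORFs kept in the totals the ratios were 0.730, 0.876, 0.996 and 1.26, which takes the third of them to the other side of 1.

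Listed length and position opposite a CDS go together, so the lengths were also compared within each class, a split chosen after the data were seen. Opposite a CDS the ratios from the shortest to the longest class were 0.750 (0.620 to 0.912), 1.12 (0.989 to 1.28), 1.45 (1.29 to 1.64) and 1.54 (1.41 to 1.70). Over no CDS they were 0.442 (0.396 to 0.495), 0.608 (0.564 to 0.656), 1.3 (1.15 to 1.46) and 1.14 (1.02 to 1.27). In both classes the 2 shorter lengths lay below the 2 longer ones. With CHX the ratios over all ORFs were 0.794 (0.753 to 0.838), 0.904 (0.876 to 0.933), 1.12 (1.08 to 1.16) and 1.08 (1.04 to 1.11). Over all ORFs the CHX ratio lay nearer to 1 at every length. By class the CHX ratios were 0.874, 0.973, 1.24 and 1.2 opposite a CDS. Over no CDS they were 0.763, 0.876, 1.01 (0.965 to 1.06) and 0.954 (0.914 to 0.995), so there the longest class lay below 1 with CHX and above 1 without.

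**Figure D4:**
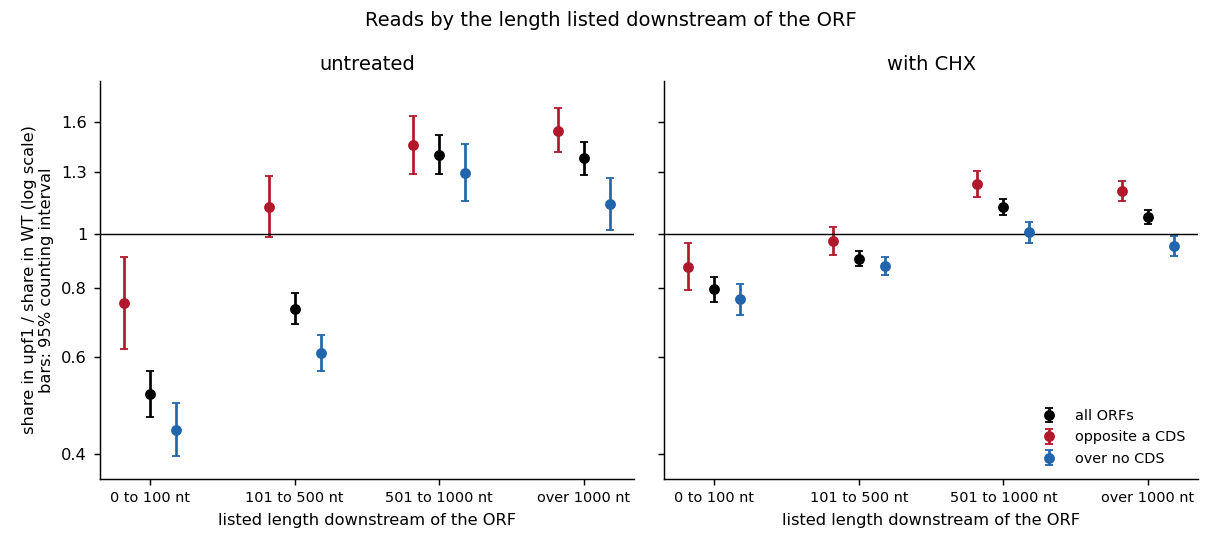
Ratio of the share of reads in upf1 to that in WT (y axis, log scale) for ORFs grouped by the length listed downstream of them (x axis, nt), in untreated cells (left) and with CHX (right), for all ORFs and by position relative to a CDS. Bars are 95% counting intervals. Over all untreated ORFs the ratio goes from 0.513 at 0 to 100 nt to 1.37 at over 1000 nt.

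Grouped by transcript, the same reads went in the same direction over all tested XUTs, which is not separate support. Among tested XUTs whose most-read ORF had over 1000 nt listed downstream, 36 of 87 were higher (41.4%) and 4 lower, and with over 500 and up to 1000 nt 17 of 45 were higher and 1 lower. With over 100 and up to 500 nt, 5 of 34 were higher (14.7%) and 8 lower, and with 0 to 100 nt, 2 of 9 were higher and 4 lower. Over no CDS, from the shortest to the longest class, 0 of 7, 2 of 24, 6 of 20 and 7 of 13 were higher. Opposite a CDS these were 2 of 2, 3 of 10, 11 of 24 and 29 of 73. The median ratios opposite a CDS were 2.79, 1.24, 1.76 and 1.68, with no steady rise by length. Across the 175 XUTs the log2 ratio and the listed length had a Spearman rho of 0.28 (Pearson r 0.20). This describes points that share 2 columns and their totals.

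The order of the ORF in its XUT made less difference. The first listed ORF held 36.4% of the reads in WT (34.8 to 38.0) and 36.7% in upf1 (36 to 37.4), a ratio of 1.01 (0.949 to 1.07). The ratio was 0.938 (0.856 to 1.03) for the second ORF and 0.872 (0.771 to 0.989) for the third. The fourth had 0.668 (0.589 to 0.759), but XUT0957 alone put 144 of its 317 WT reads there, and without the 10 most-read XUTs the ratio was 0.945. For the fifth and later ORFs together it was 1.18 (1.1 to 1.26), from 28.4% in WT to 33.4% in upf1, and 0.983 (0.949 to 1.02) with CHX. With the plasmid kept in the totals it was 0.956, below 1.

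The libraries with CHX give the same strain comparison in separate samples. Of the 60 XUTs that were at least 2-fold higher without CHX, 48 had a ratio above 1 with CHX, where 109 of all 175 did (62.3%). Their median ratio with CHX was 1.23, against 2.83 without. Of the 17 lower XUTs, 11 had a ratio below 1 with CHX, where 66 of 175 did (37.7%), with a median of 0.915 against 0.346. Both sets were chosen by their ratio without CHX, often on few WT reads. A median nearer to 1 in other libraries can follow from that choice, so these medians do not measure an effect of CHX. With CHX 40 of the 175 had an interval above 1 (22.9%) and 12 below (6.86%), and of the 60 higher XUTs 21 lay above and 1 below. At least 2-fold higher with CHX were 18 of the 175 (10.3%), and 9 of these were among the 60. Over all 175 the log2 ratios without and with CHX had a Spearman rho of 0.33 (Pearson r 0.32), across XUTs counted in different libraries but over the same ORFs.

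Both strains had reads in 744 of the 1199 XUTs, 399 had reads only in upf1 and 56 only in WT. The most reads on a XUT unread in WT were 41, over all its ORFs, and on one unread in upf1 4. A WT count of 0 allows a share of up to 0.0898% (3 reads).

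Phase scores run from 0 to 1 and describe how far the reads of an ORF keep to 1 frame. How they were computed is not given in the sources used here. A score falls with the number of reads, so ORFs were compared at like numbers. At 10 to 19 reads the median score was 0.456 in WT (0.332 to 0.538, 25 ORFs) and 0.417 in upf1 (0.375 to 0.441, 281 ORFs). At 20 reads and over it was 0.389 in WT (0.295 to 0.432, 22 ORFs) and 0.349 in upf1 (0.314 to 0.386, 207 ORFs), where the median read numbers were 31.5 and 32. At 5 to 9 reads it was 0.529 (0.50 to 0.60, 108 ORFs) and 0.50 (0.441 to 0.50, 587 ORFs). At 3 and 4 reads the medians were equal. The upf1 medians were lower in these 3 classes, and the intervals overlapped or touched in each. With CHX the upf1 medians were higher in the same 3 classes. They were 0.531 against 0.501 in WT at 5 to 9 reads and 0.452 against 0.422 at 10 to 19 reads. At 20 reads and over they were 0.408 (0.393 to 0.427) against 0.354 (0.337 to 0.371), intervals that do not overlap.

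**Figure D5:**
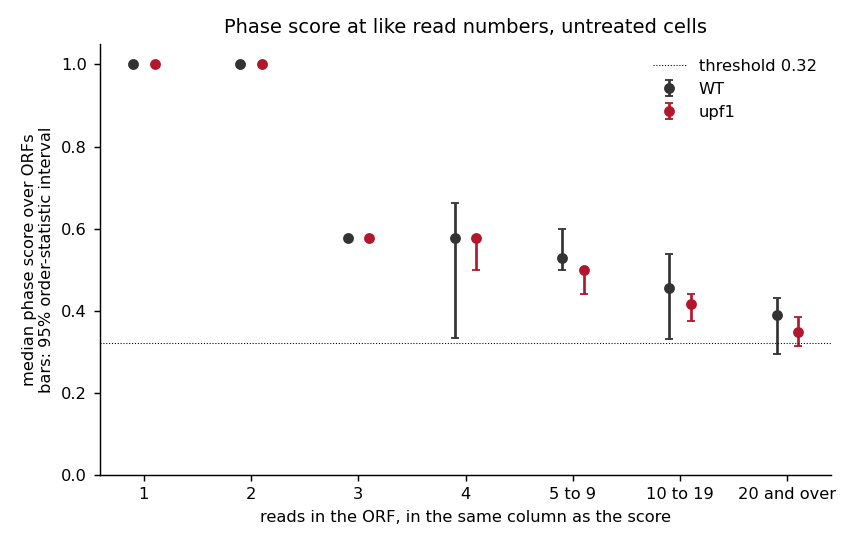
Median phase score (y axis) of ORFs with a given number of reads in the same column (x axis), for WT and upf1 without CHX. Bars are 95% order-statistic intervals over ORFs, and the dotted line is the threshold of 0.32. From 5 reads on, the upf1 medians (0.50, 0.417 and 0.349) lie below those of WT (0.529, 0.456 and 0.389) with overlapping or touching bars.

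Within the same ORFs the score without CHX was lower in upf1 more often than higher. Of 46 ORFs in 35 XUTs with at least 10 reads in both columns, 34 (73.9%) were lower in upf1, with a median difference of -0.070 (-0.114 to -0.026). These ORFs had a median of 51 reads in upf1 and 17.5 in WT, and the part of that depth in the difference was not tested. Over ORFs with 20 reads in both the median was -0.053 (-0.100 to 0.007, 20 ORFs), an interval that includes 0. ORFs that overlap share reads, and over the 10 ORFs that overlap no other listed ORF the median was -0.058 (-0.104 to 0.038), which includes 0 as well. A score of at least 0.32 was reached by 32 of the 46 in WT and by 22 in upf1, 17 of them in both. Over all ORFs with at least 10 reads in the column, 32 of 47 reached it in WT (68.1%, 52.9 to 80.9). In upf1 305 of 488 did (62.5%, 58.0 to 66.8), so these intervals overlap.

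The largest differences among the 46 are given as a description. The lower scores in upf1 were led by the 42-nt and 102-nt ORFs of XUT0567 opposite MNN4, a gene of mannan phosphorylation, which overlap and share reads (1 in WT to 0.267 in upf1, and 0.866 to 0.234). A 90-nt ORF of XUT0166 over an LTR (0.635 to 0.239), a 198-nt ORF of XUT0869 opposite YPL162C (0.750 to 0.399) and a 4038-nt ORF of XUT1639 over a Ty element (0.469 to 0.133) followed. The higher ones were 27-nt ORFs of XUT1511 over an LTR (0.339 to 0.793 and 0.305 to 0.642), a 453-nt ORF of XUT0398 opposite LSC2 (0.200 to 0.481), a 270-nt ORF of XUT1577 opposite FPY1 (0.077 to 0.319) and the 33-nt ORF of XUT0109 printed above (0.373 to 0.606). XUT0109 is thus a transcript with a smaller share of reads and a higher score in upf1.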

How the data were processed

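The deposited counts are whole-number reads per ORF, and the deposited phase score is a fraction from 0 to 1, each with 1 merged value per condition of 2 libraries. The submitters' processing notes name HISAT2 2.2.0, cutadapt, UMI-tools and build R64. How ORFs were listed and replicates combined is not given there. In the RefSeq R64 sequence each of the 13912 nuclear and mitochondrial ORFs opens with ATG and a stop codon comes next after its end; that sequence was the reference, with its annotation (overlap of at least 1 nt). Non-overlapping ORFs were taken in order of pooled count, in place of the plain sum per XUT, which is an alternative, and shares were compared by their ratio with an exact (Clopper-Pearson) conditional interval in Python 3.11.15 with scipy 1.17.1. The code was tested on simulated data. The planned edgeR test for replicate columns was not run, since none are in the table. XUTs were named by rank of the interval bound (12 each way), by total reads (10) and by gene list if past 2-fold. Members and lists were chosen with earlier results of these data known.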

Additional observations from a re-analysis of the deposited data

Results flagged for a closer look

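XUT1137 and XUT1722 had a smaller share in upf1 without CHX and a larger one with CHX, with counting intervals on opposite sides of 1. For XUT1137 the ratio was 0.417 (0.294 to 0.599) without CHX and 1.70 (1.27 to 2.30) with it, on 107 upf1 and 48 WT reads without CHX and 147 and 69 with it. For XUT1722 it was 0.489 (0.384 to 0.626) and 1.36 (1.13 to 1.65), on 248 and 95 reads and on 307 and 180. The difference between treatments was not tested, since each condition is 1 merged value.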

How the results depend on the processing

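No paired analysis was possible because the table merges the 2 replicates of each condition, and for the same reason no replicate could be left out. Of the 40 named XUTs 1 changed direction under a setting that gave it a value: XUT0083, whose interval includes 1, was at 0.801 when centred on the median. Settings that change only the read or share minimum leave each ratio as it was, so they could not turn a direction. Centring moved 7 of the 40 outside their counting interval. Counting overlapping ORFs more than once gave 29 lower XUTs, 21 of them below 1 with CHX, and 1.09 for the fifth and later ORFs. With a minimum of 50 reads, 37 XUTs were higher. With a read in both columns as the minimum, 120 were higher and 247 lower, 54 had an interval below 1, and 74 and 167 kept their side of 1 with CHX. This setting leaves out XUTs unread in WT and lets in those with 1 read. Centring on the median gave 30 higher and 29 lower, 15 with an interval above and 28 below 1, and 20 and 23 on the same side with CHX. Without the 10 most-read XUTs the ratio was 0.945 for the fourth ORF, 0.791 for over 100 and up to 500 nt downstream and 0.816 over no CDS. Keeping the 2-micron plasmid, which held 24.9% of all WT reads and 11.7% of the upf1 reads, turned the direction of 2 ratios whose intervals exclude 1: 0.956 for the fifth and later ORFs and 0.996 for over 500 and up to 1000 nt downstream. It also took 2 ratios whose intervals include 1 across it, to 1.12 for the second ORF and 0.894 for ORFs of 31 to 60 nt. It gave 1.12 for the first ORF, 0.730, 0.876 and 1.26 for the other downstream lengths, and 1.25 and 0.814 for ORFs of 61 to 150 and over 150 nt. With the plasmid kept, 73 of 177 XUTs were higher and 12 lower, with a median ratio of 1.68. Of the 17 lower XUTs 11 remained so, and XUT1722 was at 0.583. XUT1722 was at 0.541 with overlapping ORFs counted more than once, also outside the limit of 0.5. The next settings, and the split of downstream length by position, were chosen after seeing the data. A mean share of at least 0.15% is given above, and leaving out ORFs with a repeated 28-nt window (134 ORFs) left 56 higher and 17 lower of 168.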

Other observations

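By ORF length the intervals of the ratio without CHX all included 1. ORFs of 15 to 30 nt held 9.66% of the reads in WT and 8.72% in upf1, a ratio of 0.903 (0.80 to 1.02). ORFs over 150 nt held 26.1% and 25.6%, a ratio of 0.981 (0.913 to 1.06). With CHX the same classes had ratios of 0.839 (0.797 to 0.883) and 1.22 (1.18 to 1.28), so the length classes differed there beyond counting error. With the 2-micron plasmid kept, the ratios without CHX were 0.894 for 31 to 60 nt, 1.25 for 61 to 150 nt and 0.814 for over 150 nt.

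ORFs that overlap an annotated Ty element or LTR, 102 ORFs of 55 XUTs, held 7.78% of the reads in WT (6.89 to 8.74) and 4.63% in upf1 (4.32 to 4.94), a ratio of 0.595 (0.517 to 0.686). Copies of these elements can share reads. With CHX the ratio was 0.831 (0.771 to 0.895). Without these ORFs the share opposite a CDS was 40.1% in WT and 51.9% in upf1.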
